A study of Mus musculus with 36 samples.

Results

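The cytotoxic effector genes are a set of 10 genes that carry the killing functions of CD8+ T cells and natural killer (NK) cells: perforin (Prf1), 6 granzymes (Gzma, Gzmb, Gzmc, Gzmd, Gzme and Gzmk), the granule membrane protein Nkg7, interferon gamma (Ifng) and the death ligand Fas ligand (Fasl). They were taken by name, not by a cut on their values, from the 37417 genes of a bulk mRNA sequencing experiment on 36 mouse tumours. The set was chosen with earlier results of these data known. Levels are in CPM, the unit that scales the reads of a gene to the total of reads assigned to any gene of the same library.

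The tumours were subcutaneous grafts in wild-type mice aged 12 weeks. Per the labels, the colon adenocarcinoma line MC38 and the pancreatic line PancO2 were grown in C57BL/6J mice and the colon carcinoma line CT26 in BALB/c mice. Each mouse had been given control IgG (rat serum), anti-CTLA4 or anti-PD-1, the antibodies against these 2 checkpoint receptors of T cells, by intraperitoneal injection at 10 mg per kg, and tumours were collected at end stage. This gave 9 labelled groups of 4 libraries, named here by group and mouse number. Whole tumours were sequenced, so fewer cells of a type and less RNA per cell cannot be told apart.

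The labels could not be taken at face value. H2-Ea-ps, an MHC class II transcript that BALB/c mice express and C57BL/6 mice carry in a silent form, went against the labelled strain in 16 of 36 libraries. Libraries were therefore also described in 3 classes set by transcripts outside the gene set: 12 libraries with H2-Ea-ps above 10 CPM (32.8 to 134 CPM, called H2-Ea-ps-positive), 12 with ceruloplasmin (Cp) above 1000 CPM (1389 to 2168 CPM, called Cp-high) and 12 with neither. These classes came from the data and are not groups of the study, and within them strain, tumour line and class cannot be told apart. All 3 labelled models occurred in each class, and 8 of 9 labelled groups had libraries in all 3. Totals ran from 7883106 to 41751023 counts. The shallowest library, PancO2 anti-PD-1 71 of the H2-Ea-ps-positive class, stood apart: 15.7% of its gene counts were mitochondrial against at most 4.35% elsewhere, and its marker of plasmacytoid dendritic cells, Siglech, reached 69.6 CPM against at most 5.11 CPM in the Cp-high and neither classes. Results that rest on this library are given with and without it.

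Killer lymphocytes store perforin and granzymes in secretory granules. On contact with a target cell the granules are released, perforin opens the target's membrane and the granzymes, a family of serine proteases, enter and start cell death. Interferon gamma is a secreted cytokine that raises antigen presentation in surrounding cells, and Fas ligand kills through the death receptor Fas. In mice the granzyme genes lie in separate clusters: Gzma (GRCm38 chromosome 13, 113093825 to 113100981) and Gzmk (chromosome 13, 113171608 to 113225908) neighbour each other, while Gzmb (chromosome 14, 56258838 to 56262260) and Gzmc (chromosome 14, 56231441 to 56234656) share a cluster with Gzmd (chromosome 14, 56129556 to 56132608) and Gzme (chromosome 14, 56117626 to 56120625). All 6 lie on the minus strand. Prf1 lies at chromosome 10, 61297833 to 61304680, and Ifng at chromosome 10, 118441046 to 118445892. Nkg7 is at chromosome 7, 43437073 to 43438249, and Fasl at chromosome 1, 161780689 to 161788495.

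The sequences upstream of the chromosome 14 members are shown because Gzmc, Gzmd and Gzme moved together in the values below. Gzmb differed from them in part of these values only. They are the 250 bases before the RefSeq gene start (GRCm38.p6, minus strand) at chr14:56262335-56262584 for Gzmb, chr14:56234658-56234907 for Gzmc, chr14:56132594-56132843 for Gzmd and chr14:56120626-56120875 for Gzme. Capitals mark matches to TGTGGT on either strand (ACCACA on the strand shown), the core that Runx factors bind. The last 15 bases of the Gzmd window lie inside the GENCODE model of that gene.
Gzmb: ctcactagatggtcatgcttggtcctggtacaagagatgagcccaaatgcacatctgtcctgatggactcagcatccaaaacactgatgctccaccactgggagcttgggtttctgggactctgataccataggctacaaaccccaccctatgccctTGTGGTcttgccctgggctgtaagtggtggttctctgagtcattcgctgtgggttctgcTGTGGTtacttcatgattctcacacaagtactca
Gzmc: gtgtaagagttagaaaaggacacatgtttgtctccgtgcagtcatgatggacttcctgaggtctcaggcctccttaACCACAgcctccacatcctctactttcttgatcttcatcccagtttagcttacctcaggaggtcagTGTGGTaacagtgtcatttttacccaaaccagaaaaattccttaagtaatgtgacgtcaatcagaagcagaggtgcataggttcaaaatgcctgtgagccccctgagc
Gzmd: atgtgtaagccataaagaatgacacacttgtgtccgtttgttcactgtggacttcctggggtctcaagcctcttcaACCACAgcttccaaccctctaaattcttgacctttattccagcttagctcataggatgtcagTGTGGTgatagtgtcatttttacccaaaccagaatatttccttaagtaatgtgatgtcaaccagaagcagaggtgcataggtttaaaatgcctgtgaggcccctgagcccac
Gzme: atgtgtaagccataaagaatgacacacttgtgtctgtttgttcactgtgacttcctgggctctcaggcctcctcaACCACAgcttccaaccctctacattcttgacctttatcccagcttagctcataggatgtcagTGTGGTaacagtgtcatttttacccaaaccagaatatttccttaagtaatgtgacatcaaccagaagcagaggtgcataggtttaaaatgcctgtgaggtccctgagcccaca
The windows of Gzmd and Gzme were identical at 94.8% of aligned positions, and that of Gzmc was identical to them at 81.3% and 81.8%. The window of Gzmb matched that of Gzmd at 47.3%. Each of these 4 windows held 2 matches to TGTGGT, and in Gzmc, Gzmd and Gzme both lay at like positions, beginning 174 or 175 and 108 to 113 bases before the start. Of 32851 mouse promoter windows of this length, 14% held the motif. Prf1, Gzma and Nkg7 had 1 match each, beginning 130, 50 and 83 bases before the start, and no match was found for Ifng or Fasl in this window. Searched on both strands as well were the T-box half-site GGTGTGA, which shares the letters GTG with TGTGGT and was found in the window of Nkg7 (3.33% of windows hold it), the GAS motif TTCNNNGAA, found in those of Ifng and Nkg7 (7.02%), and the AP-1 site TGANTCA, found in that of Gzmb (6.75%). The RefSeq start of Gzmk lies 44943 bases from its GENCODE start, so its window was not used. A match describes these letters and is not shown to be a bound site.

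The likeness extends into the transcripts and bears on the counts. Transcripts of Gzmd and Gzme were identical at 90.4% of aligned positions, those of Gzmc and Gzmd at 70.3%, and those of Gzmb and Gzmc at 48.1%. Of all stretches of 50 bases in the gene, 21.9% for Gzmd, 20.6% for Gzme and 4.14% for Gzmc also occur in another gene of the family. Reads from such stretches have no unique position and were set aside, so Gzmd and Gzme are undercounted and uncertain. None of the 50-base stretches of Prf1, Gzma, Gzmb, Gzmk, Nkg7 or Fasl occurred in another gene, and 13.5% of those of Ifng are shared with the overlapping gene model Gm49751.

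Prf1, the pore-forming protein, had its lowest level at 5.07 CPM, its median at 28.99 CPM and its highest at 51.3 CPM in the 12 H2-Ea-ps-positive libraries. In the Cp-high class it ran from 0.767 to 11.4 CPM with a median of 3.44 CPM, and in the neither class from 2.62 to 12.5 CPM with a median of 5.46 CPM. The ranges of the H2-Ea-ps-positive and the other libraries overlapped only through PancO2 anti-PD-1 71, and without it the lowest positive library, MC38 IgG 4, was at 18.5 CPM. On the log2 scale Prf1 was 2.30 ± 0.35 (SE) higher in H2-Ea-ps-positive than in neither libraries (edgeR quasi-likelihood test, adjusted p = 4.69e-07), or 2.40 without that library. The Cp-high and neither classes overlapped, and the difference in Prf1 of −0.56 did not pass the test (edgeR, adjusted p = 0.155).

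Nkg7, which sits in the granule membrane and is needed for granule release, did not follow Prf1 in its levels by class. It ran from 2.54 to 9.26 CPM in H2-Ea-ps-positive libraries (median 5.34 CPM), from 3.78 to 20.3 CPM in Cp-high libraries (median 7.12 CPM) and from 0.614 to 11.7 CPM in neither libraries. All 3 ranges overlapped. Nkg7 was 0.87 ± 0.30 log2 units higher in the Cp-high than in the neither class (edgeR, adjusted p = 0.0113), and its difference of 0.29 ± 0.30 log2 units between H2-Ea-ps-positive and neither libraries was within the spread.

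Gzmb, the granzyme that cleaves caspases after aspartate, ran from 18.1 to 79.1 CPM in the H2-Ea-ps-positive class with a median of 34.8 CPM. It ran from 2.90 to 28.2 CPM in the Cp-high class (median 8.53 CPM) and from 5.07 to 30.4 CPM in the neither class (median 11.7 CPM). The highest Cp-high and neither libraries, MC38 anti-CTLA4 8 and PancO2 IgG 49, lay inside the H2-Ea-ps-positive range. Gzmb was 1.54 ± 0.33 log2 units higher in H2-Ea-ps-positive than in neither libraries (edgeR, adjusted p = 0.000102) and did not differ past the threshold between Cp-high and neither (−0.42).

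Gzmc, Gzmd and Gzme, the neighbours of Gzmb, were also highest in the H2-Ea-ps-positive class. Gzmc ran from 5.96 to 68.3 CPM with a median of 31.7 CPM in H2-Ea-ps-positive libraries, from 0.531 to 4.83 CPM with a median of 1.74 CPM in Cp-high libraries and from 1.99 to 13.4 CPM with a median of 4.25 CPM in neither libraries. Gzmd ran from 4.06 to 104 CPM with a median of 51.1 CPM in the H2-Ea-ps-positive class. In the Cp-high class Gzmd reached at most 1.29 CPM, with a median of 0.558 CPM, and had 0 counts in MC38 anti-PD-1 18, PancO2 anti-CTLA4 58 and PancO2 anti-PD-1 68, which allows levels of up to 0.130, 0.228 and 0.105 CPM, counting error only. The neither class lay between, at 1.99 to 12.1 CPM with a median of 4.79 CPM.

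Gzme showed the same order of classes as Gzmd. Its levels were 1.27 to 35.7 CPM (median 19.04 CPM) in H2-Ea-ps-positive libraries, 0 to 0.625 CPM (median 0.281 CPM) in Cp-high libraries and 0.749 to 4.81 CPM (median 2.03 CPM) in neither libraries. Cp-high and neither libraries did not overlap in Gzmd or in Gzme, and Cp-high and H2-Ea-ps-positive libraries did not overlap in Gzmc, Gzmd or Gzme. Relative to the neither class, H2-Ea-ps-positive libraries were higher by 2.68 ± 0.36 for Gzmc, 3.15 ± 0.40 for Gzmd and 3.09 ± 0.40 for Gzme on the log2 scale (edgeR, adjusted p = 3.46e-08, 9.67e-09 and 1.30e-08). Cp-high libraries were lower than neither libraries by −1.24 ± 0.36 for Gzmc (adjusted p = 0.00282), −3.44 ± 0.47 for Gzmd (adjusted p = 4.57e-08) and −2.86 ± 0.45 for Gzme (adjusted p = 6.41e-07) in the same test. The lowest H2-Ea-ps-positive library was PancO2 anti-PD-1 71 for each of these 3 genes, and without it the class began at 13.3 CPM for Gzmc, 10.3 CPM for Gzmd and 3.27 CPM for Gzme.

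Gzmf and Gzmg, which lie in the same cluster, had this order of classes too. Gzmf had medians of 72.0, 1.31 and 7.67 CPM in the H2-Ea-ps-positive, Cp-high and neither classes, and Gzmg had medians of 53.5, 0.0619 and 4.94 CPM. Both were higher in H2-Ea-ps-positive than in neither libraries, by 3.01 and 3.32 log2 units, and lower in Cp-high than in neither libraries, by −2.21 and −5.11 log2 units (edgeR, adjusted p under the threshold for all 4). About as many of their 50-base stretches as of Gzmd and Gzme, 19.4% and 19.8%, are shared with other genes. Cma1 and Mcpt4, mast cell proteases encoded beside the granzymes, differed from them in the Cp-high class only. They were higher in Cp-high than in neither libraries, by 2.77 and 2.20 log2 units. Like the granzymes, they were also higher in H2-Ea-ps-positive than in neither libraries, by 2.18 and 2.52 log2 units. All 4 values passed edgeR's threshold.

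Gzma and Gzmk, neighbours on chromosome 13, were unlike each other. Gzma, a tryptase common in NK cells, ran from 5.93 to 23.96 CPM in H2-Ea-ps-positive libraries (median 12.8 CPM), from 0 to 2.89 CPM in Cp-high libraries (median 1.41 CPM) and from 0.634 to 5.44 CPM in neither libraries (median 1.58 CPM). The H2-Ea-ps-positive libraries were all above every other library, and the library at 0, CT26 IgG 28, allows up to 0.164 CPM. Gzma was 2.76 ± 0.37 log2 units higher in H2-Ea-ps-positive than in neither libraries (edgeR, adjusted p = 2.44e-08). Gzmk, typical of memory-like CD8+ T cells, stayed at or under 2.01 CPM in every library. Its medians were 0.468, 0.817 and 0.753 CPM in the 3 classes in the same order, all ranges overlapped, and no class contrast passed the test (−0.44 ± 0.40 log2 units for H2-Ea-ps-positive against neither).

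Ifng ran from 0.299 to 1.99 CPM in H2-Ea-ps-positive libraries with a median of 1.14 CPM, from 0.219 to 4.07 CPM in Cp-high libraries with a median of 1.76 CPM and from 0 to 2.60 CPM in neither libraries with a median of 0.547 CPM. The library at 0, CT26 anti-PD-1 40, allows up to 0.123 CPM. Ifng was 1.36 ± 0.46 log2 units higher in Cp-high than in neither libraries (edgeR, adjusted p = 0.00985). The difference of 0.74 log2 units between H2-Ea-ps-positive and neither libraries did not pass edgeR's test (adjusted p = 0.157) and did pass limma-voom's (adjusted p = 0.0201), the range over the alternatives being 0.0201 to 0.225. Fasl was the most even member, with medians of 2.24, 1.97 and 1.91 CPM, overlapping ranges and no class contrast past the threshold.

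**Figure D1:**
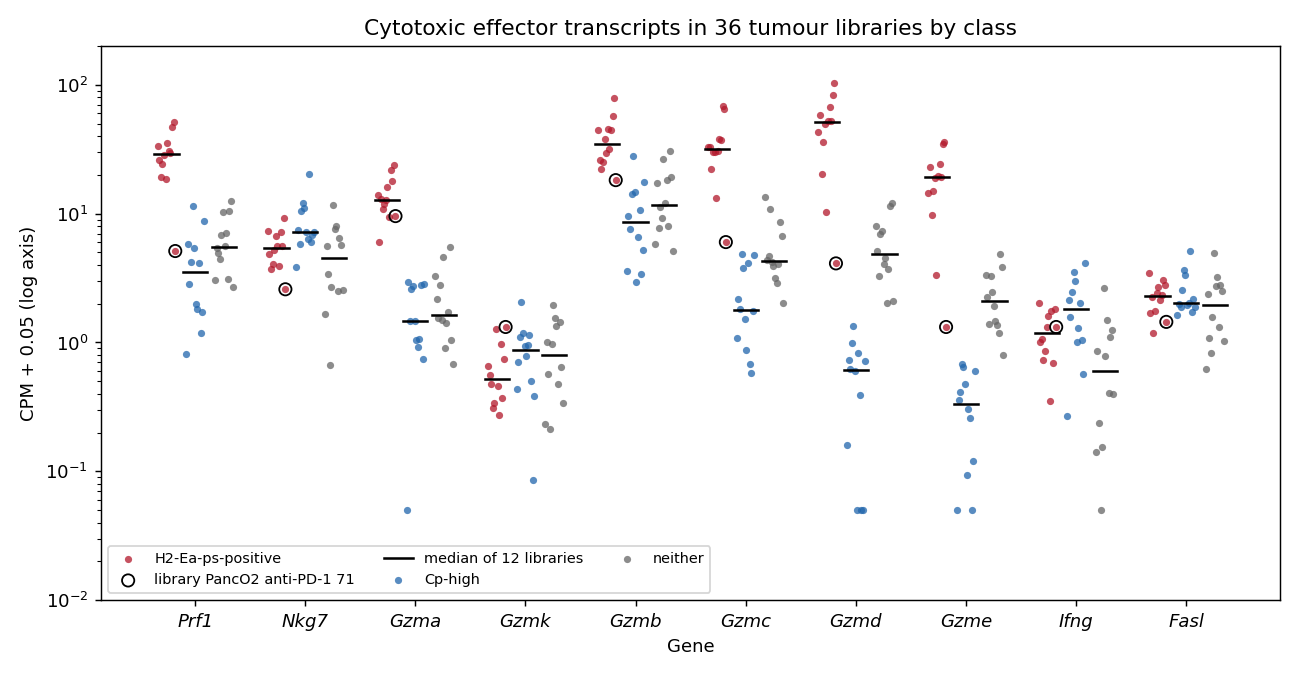
Level of each of the 10 genes in every library, in CPM plus 0.05 on a log axis, by class. Each point is 1 of the 36 libraries, black lines mark the medians of 12 libraries and a ring marks PancO2 anti-PD-1 71. Gzma, Gzmb, Gzmc, Gzmd, Gzme and Prf1 sit highest in the H2-Ea-ps-positive class (Gzmd median 51.1 CPM against 0.558 CPM in the Cp-high class). Of these, only Gzma has no overlap between that class and the neither class. Gzmk, Ifng, Nkg7 and Fasl overlap across all classes.

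In counts, 6 of 10 members (Prf1, Gzma, Gzmb, Gzmc, Gzmd and Gzme) were higher and none was lower in H2-Ea-ps-positive than in neither libraries, where 36.9% of all 16323 genes tested were higher and 34% lower. The median log2 difference was 1.92 over the members and 0.03 over all genes. Between Cp-high and neither libraries 2 members (Ifng and Nkg7) were higher and 3 (Gzmc, Gzmd and Gzme) lower, against 34.2% and 33.4% of all genes, and the members' median was −0.39 against 0.02. Between Cp-high and H2-Ea-ps-positive libraries 6 were lower and none higher, against 38.1% and 36% of all genes. The classes share libraries between these 3 contrasts, and with over 2 in 3 genes called in each, a share of called members near these percentages is no result about the members.

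Counted by ranges, 1 member (Gzma) did not overlap between H2-Ea-ps-positive and neither libraries, against 27.1% of 14180 expressed genes. Without PancO2 anti-PD-1 71 it was 2 members (Prf1 and Gzma) against 34.9%. Between Cp-high and neither libraries 2 members did not overlap, against 31.0% with or without that library. Between Cp-high and H2-Ea-ps-positive libraries 4 members (Gzma, Gzmc, Gzmd and Gzme) did not overlap, against 32%, and 5 with Prf1 against 40.5% without the library.

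Markers of several cell types also differed between classes. Of 5 T cell markers (Cd3d, Cd3e, Cd3g, Trac and Trbc2) none passed the test between H2-Ea-ps-positive and neither libraries, with summed levels of 10.8 to 26.97 CPM and 2.37 to 51.9 CPM, and all 5 were higher in Cp-high libraries, at 24.4 to 82.8 CPM. Cd8a had medians of 13.8, 23.3 and 13.8 CPM in the H2-Ea-ps-positive, Cp-high and neither classes. So the class with the highest Prf1, Gzma, Gzmb, Gzmc, Gzmd and Gzme was not the class with the highest T cell markers. Of 5 NK cell markers, Klre1, Klrk1 and Ncr1 were higher and Klrb1c lower in H2-Ea-ps-positive than in neither libraries, with summed levels of 17.1 to 37.5 CPM against 7.05 to 28.8 CPM, and 12.5 to 42.1 CPM in the Cp-high class. Between Cp-high and neither libraries these 5 were split. Klrk1 (1.24 log2 units) and Klrd1 (0.82) were higher, Ncr1 (−0.78) and Klrb1c (−0.68) were lower, and Klre1 (0.14) did not pass. Ncr1, which encodes the NK receptor NKp46, ran from 2.41 to 6.15 CPM in H2-Ea-ps-positive libraries, from 0.164 to 0.807 CPM in Cp-high libraries and from 0.261 to 1.55 CPM in neither libraries. All 5 mast cell markers tested were higher in both the H2-Ea-ps-positive and the Cp-high class than in the neither class, with sums of 18.3 to 165, 14.5 to 157 and 0.493 to 33.7 CPM. The 3 macrophage markers (Adgre1, Cd68 and Csf1r) were lower in H2-Ea-ps-positive than in neither libraries, with sums of 194 to 368 CPM against 414 to 671 CPM, and 352 to 563 CPM in the Cp-high class. All 4 neutrophil markers were lower in the same contrast, with sums of 16.1 to 48.1, 40.7 to 172 and 24.2 to 239 CPM in the H2-Ea-ps-positive, Cp-high and neither classes. Of 3 epithelial markers Epcam and Krt18 were higher and Krt8 lower in H2-Ea-ps-positive than in neither libraries, and all 3 were higher in Cp-high than in neither libraries, with sums of 6.99 to 41.5, 567 to 1129 and 57.3 to 422 CPM in the 3 classes. The part of these cell types in the class differences was not tested.

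Levels can be roughly compared between genes once divided by exon length. The full exon length was used, with no allowance for stretches shared with other genes. Such stretches make up 21.9% of Gzmd, 20.6% of Gzme, 13.5% of Ifng and 4.14% of Gzmc. The places of these genes in the orders below are therefore uncertain, and Gzmd and Gzme may stand too low. In H2-Ea-ps-positive libraries the order by median CPM per kilobase was Gzmd (53.0), Gzmc (35.4), Gzmb (24.2), Gzme (20.8), Gzma (12.7), Prf1 (11.2), Nkg7 (5.84), Fasl (1.15), Ifng (0.882) and Gzmk (0.337). Of the 9 pairs of neighbours in this order, only Nkg7 and Fasl had ranges that did not overlap. In Cp-high libraries the order changed to Nkg7 (7.79), Gzmb (5.94), Gzmc (1.95), Gzma (1.399), Ifng (1.36), Prf1 (1.33), Fasl (1.02), Gzmk (0.588), Gzmd (0.579) and Gzme (0.307 CPM per kilobase). In the neither class Gzmb led at 8.12 CPM per kilobase, before Gzmd (4.97), Nkg7 (4.90), Gzmc (4.75), Gzme (2.22), Prf1 (2.12), Gzma (1.57), Fasl (0.987), Gzmk (0.542) and Ifng (0.422). Neighbours overlapped in every case in these 2 classes.

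Within classes the question was which members moved with Cd8a, the chain of the CD8 receptor that marks CD8+ T cells. In a fit of all 36 libraries with class as a term, 5 of 10 members had a positive slope on log2 Cd8a and none a negative one, against 2.14% and 0.208% of 16322 genes. Ifng rose by 1.11 ± 0.16 log2 units for each log2 unit of Cd8a (edgeR, adjusted p = 9.22e-06), Gzmk by 0.75 ± 0.14 (adjusted p = 0.00049), Nkg7 by 0.64 ± 0.07 (adjusted p = 1.06e-07), Fasl by 0.58 ± 0.06 (adjusted p = 2.28e-08) and Gzmb by 0.43 ± 0.12 (adjusted p = 0.039). The call of Gzmb was lost when Cd3e took the place of Cd8a (adjusted p = 0.0887) and with no filter on low counts (adjusted p = 0.0998). The slope of Prf1 was 0.37 ± 0.13 and missed the threshold (edgeR, adjusted p = 0.197). The remaining granzymes had slopes near 0 or below, at 0.00 ± 0.13 for Gzma, 0.00 ± 0.16 for Gzmd, −0.03 ± 0.15 for Gzme and −0.25 ± 0.13 for Gzmc, as had Gzmf (0.10) and Gzmg (0.04). The members' median slope was 0.40 against 0.00 over all genes.

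**Figure D2:**
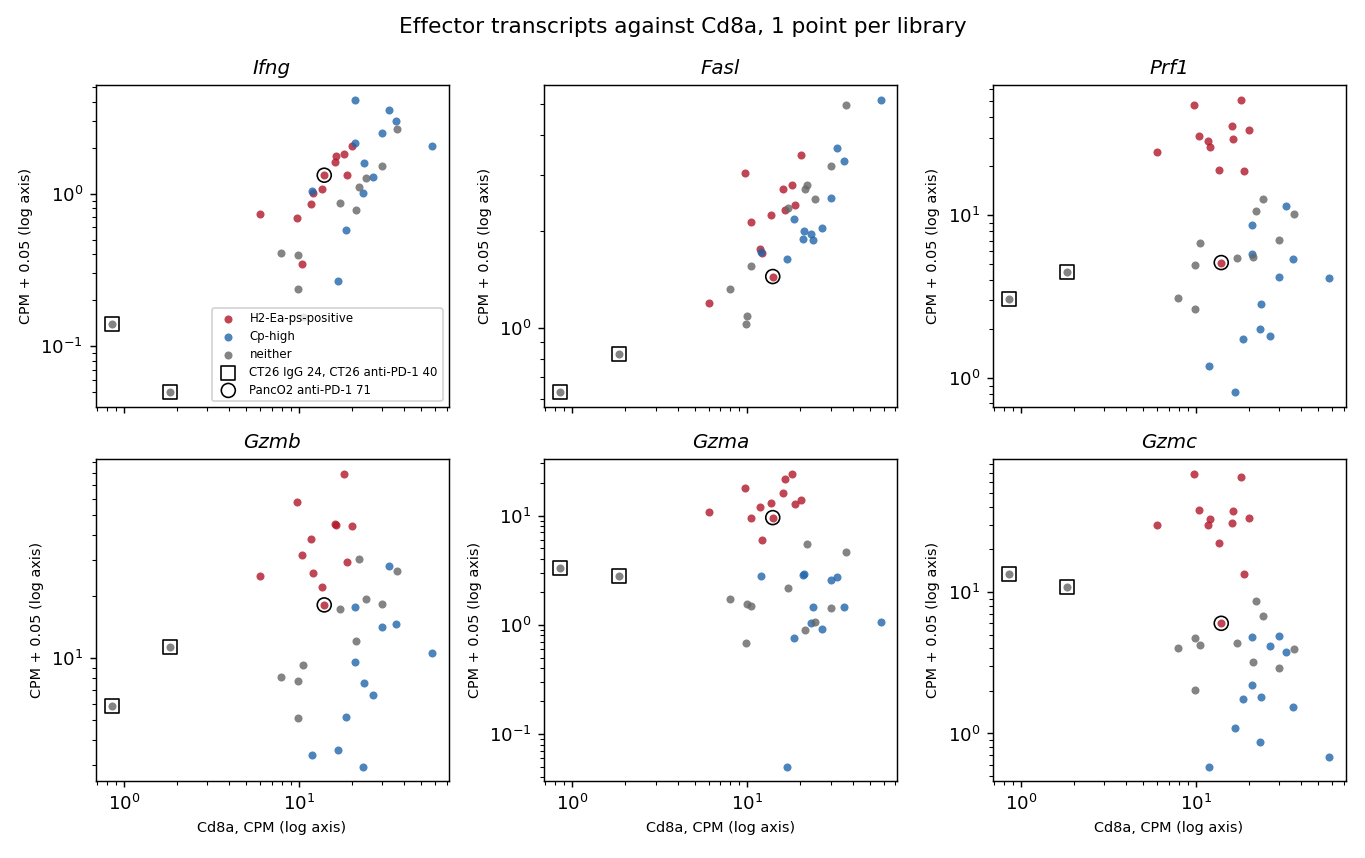
Levels of Ifng, Fasl, Prf1, Gzmb, Gzma and Gzmc, in CPM plus 0.05, against Cd8a in CPM, both on log axes, with 1 point for each library coloured by class. Squares mark CT26 IgG 24 and CT26 anti-PD-1 40 and rings PancO2 anti-PD-1 71. Ifng and Fasl climb with Cd8a (slopes of 1.11 and 0.58), whereas Gzma and Gzmc do not (slopes of 0.00 and −0.25) and their classes stand at different heights.

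**Figure D3:**
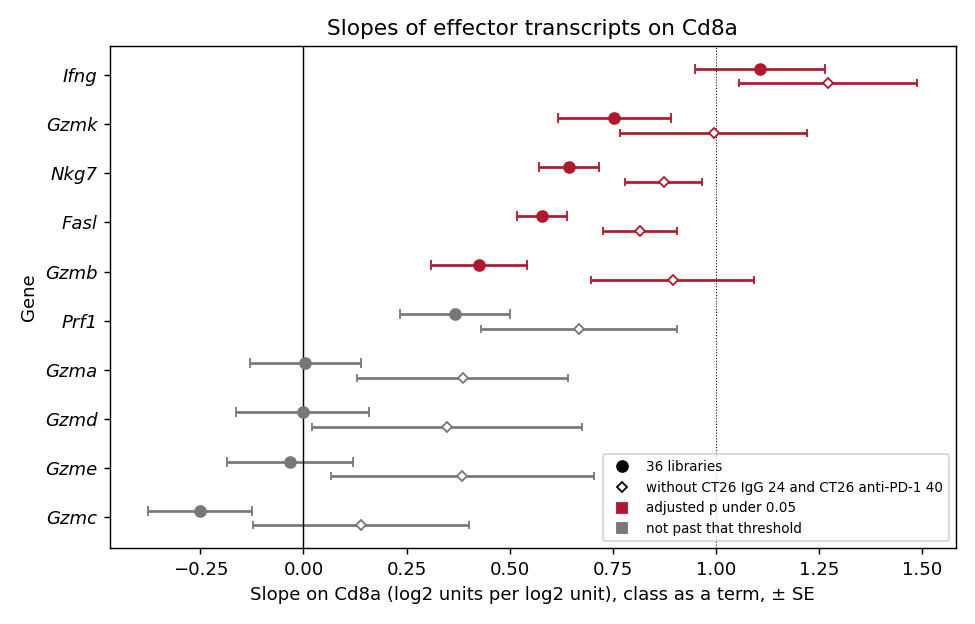
Slope of each gene on Cd8a, in log2 units for each log2 unit of Cd8a, with class as a term. Filled circles are all 36 libraries, open diamonds leave out CT26 IgG 24 and CT26 anti-PD-1 40, bars are 1 standard error, and red marks an adjusted p under 0.05. Ifng (1.11) is highest and Gzmc (−0.25) lowest with all libraries.

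These slopes leaned on 2 libraries of the neither class with the least Cd8a, CT26 IgG 24 at 0.851 CPM and CT26 anti-PD-1 40 at 1.84 CPM, singled out after the values were seen. They held Ifng at 0.0912 and 0 CPM, yet the highest Gzmc of their class, at 13.4 and 10.7 CPM. Without them the same 5 members were called, with slopes of 1.27 for Ifng, 0.99 for Gzmk, 0.90 for Gzmb (adjusted p = 0.00911), 0.87 for Nkg7 and 0.82 for Fasl in edgeR's test. The slope of Prf1 became 0.67 (adjusted p = 0.249), and those of Gzma, Gzmc, Gzmd and Gzme became 0.39, 0.14, 0.35 and 0.39, none past the threshold. Whether slopes differed between classes was tested as an interaction, which called 0 of 10 members and 0.0% of all genes in edgeR (360 genes at an unadjusted p under 0.05).

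Fits of each class on its own gave fewer calls. In the neither class 2 of the 8 members with enough counts were called, Fasl (0.56 ± 0.07, adjusted p = 0.00104) and Nkg7 (0.62 ± 0.09, adjusted p = 0.00239), against 1.6% of 14025 genes. In the Cp-high class 2 of 5 were called, again Nkg7 (0.91 ± 0.14, adjusted p = 0.0263) and Fasl (0.81 ± 0.13, adjusted p = 0.0337), against 0.122% of 13991 genes. Gzmk and Ifng had too few counts to be tested in any single class. In the H2-Ea-ps-positive class edgeR called 0 of 8 members and 0.0% of 13247 genes. There 399 genes had an unadjusted p under 0.05, DESeq2 called 18 genes and limma-voom 0.

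Correlations of log2 CPM with Cd8a inside each class covered all 10 members, 30 relations in all, of which 10 passed the adjusted threshold for Pearson's r and each of these was positive. In the neither class Fasl (r = 0.910, rho = 0.958, adjusted permutation p = 0.0003, unadjusted 1e-05, the smallest that the permutations can give), Nkg7 (r = 0.891, rho = 0.958, permutation p = 7e-05, adjusted 0.00066), Gzmk (r = 0.871, rho = 0.874, permutation p = 0.00011, adjusted 0.00066) and Ifng (r = 0.865, rho = 0.916, permutation p = 9e-05, adjusted 0.00066) were closest to it. Prf1 (r = 0.675, rho = 0.874, permutation p = 0.0140, adjusted 0.0419) and Gzmb (r = 0.670, rho = 0.832, permutation p = 0.0140, adjusted 0.0419) followed. Without the 2 libraries farthest from the median of Cd8a, again CT26 IgG 24 and CT26 anti-PD-1 40, these 6 kept r between 0.776 and 0.966. Gzmc was negative in this class (r = −0.618, rho = −0.385, permutation p = 0.0317, adjusted 0.0792) and turned to r = 0.202 without those 2 libraries, so the negative relation rested on them.

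In the Cp-high class Fasl (r = 0.897, rho = 0.832, permutation p = 3e-05, adjusted 0.00045) and Nkg7 (r = 0.860, rho = 0.769, permutation p = 0.00076, adjusted 0.0038) tracked Cd8a, with r of 0.852 and 0.838 without PancO2 anti-CTLA4 57 and PancO2 anti-CTLA4 58. Gzmk passed there by rank only (rho = 0.818, permutation p = 0.00212, adjusted 0.00707), with r = 0.572 (adjusted permutation p = 0.119). In the H2-Ea-ps-positive class it was Ifng (r = 0.755, rho = 0.930, permutation p = 0.00546, adjusted 0.0234) and Gzmk (r = 0.684, rho = 0.769, permutation p = 0.0118, adjusted 0.0419), with r of 0.844 and 0.733 without CT26 IgG 27 and CT26 anti-PD-1 42. Prf1 showed no relation with Cd8a in this class (r = 0.004, rho = 0.070, permutation p = 0.990, adjusted 0.990). Without PancO2 anti-PD-1 71 relations past the threshold rose to 12, adding Fasl (r = 0.737) and Nkg7 (r = 0.697) in the H2-Ea-ps-positive class. By rho neither of these passed (adjusted permutation p = 0.120 and 0.057), and without CT26 IgG 27 and CT26 anti-PD-1 42 as well their r was 0.259 and 0.658, so that of Fasl rested on those libraries. Gzma, Gzmc, Gzmd and Gzme had no relation with Cd8a past the adjusted threshold in any class. In the Cp-high class the r of Gzmd (0.541) and Gzme (0.586) was much like that of Prf1 (0.545), Ifng (0.522) and Gzmb (0.589). None of them passed there (adjusted permutation p from 0.0909 to 0.1345).

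To test which members behaved apart from Prf1 and from Ifng, the log2 ratio of each to Prf1 and to Ifng was regressed on Cd8a within classes (17 ratios, permutation test, adjusted over the 17). Against Prf1, the ratio fell with Cd8a for Gzmc (−0.62 ± 0.10, permutation p = 2e-05, adjusted 0.00017), Gzme (−0.36 ± 0.10, adjusted permutation p = 0.00371), Gzmd (−0.33 ± 0.14, adjusted permutation p = 0.0332) and Gzma (−0.37 ± 0.15, adjusted permutation p = 0.0336), and rose for Ifng (0.50 ± 0.15, adjusted permutation p = 0.0158). Gzmb kept closest to Prf1, with a ratio slope of 0.06 ± 0.08 (adjusted permutation p = 0.411). Gzmk (0.29 ± 0.19), Nkg7 (0.29 ± 0.13) and Fasl (0.17 ± 0.13) did not differ from Prf1 past the threshold. Gzmk did pass with a prior count of 0.5 in place of 2 (0.36, adjusted permutation p = 0.0417). Both Gzmk and Nkg7 passed with Cd8b1 in place of Cd8a (0.43 and 0.36, adjusted permutation p = 0.0118 and 0.0216). With a prior count of 0.5 in place of 2, the ratios of Gzmd and Gzma to Prf1 no longer passed (adjusted permutation p = 0.144 and 0.0633), and with Cd8b1 in place of Cd8a that of Gzma did not (adjusted permutation p = 0.139).

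Against Ifng, the ratio fell with Cd8a for Gzmc (−1.11 ± 0.17), Gzma (−0.87 ± 0.13), Gzme (−0.86 ± 0.20), Gzmd (−0.82 ± 0.22), Gzmb (−0.44 ± 0.13) and Fasl (−0.33 ± 0.13), with adjusted permutation p from 0.00017 to 0.0296. Gzmk (−0.21 ± 0.15) and Nkg7 (−0.20 ± 0.12) did not pass. Nkg7 did pass with a prior count of 0.5 (−0.40, adjusted permutation p = 0.0158) and with Cd8b1 in place of Cd8a (−0.26, adjusted permutation p = 0.0263). Without CT26 IgG 24 and CT26 anti-PD-1 40 only 3 ratios passed. These were Gzmc to Prf1 (−0.60 ± 0.18, adjusted permutation p = 0.0180), Gzmc to Ifng (−1.14 ± 0.29, adjusted permutation p = 0.00969) and Gzma to Ifng (−0.79 ± 0.23, adjusted permutation p = 0.0219). Gzmc was the granzyme whose slope differed from those of both Prf1 and Ifng with and without these libraries.

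Ncr1 was examined in the same way, as 1 of the 5 markers of NK cells, which did not all go the same way between classes. In the H2-Ea-ps-positive class Gzma followed it closely (r = 0.925, rho = 0.951, permutation p = 2e-05, adjusted 0.0006, and r = 0.925 without CT26 anti-CTLA4 34 and PancO2 anti-CTLA4 62), and this was the only 1 of 30 relations of members with Ncr1 to pass for Pearson's r. In edgeR's fit of that class the slope of Gzma on Ncr1 was 1.17 ± 0.16 (adjusted p = 0.0567), and no member and 0.0% of genes were called (543 genes at an unadjusted p under 0.05). Without PancO2 anti-PD-1 71 it was 1.19 ± 0.16 (adjusted p = 0.0305), and Gzma was then the only gene called. Over all classes the fit on Ncr1 called 0 members and 0.0% of genes (663 genes at an unadjusted p under 0.05).

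Among themselves the members formed tight pairs. Of 135 within-class relations (45 pairs in each of 3 classes), 46 passed the adjusted threshold, all positive, 16 in the H2-Ea-ps-positive class and 15 in each of the others (51 by Spearman's rho, and 43 by r without PancO2 anti-PD-1 71). Gzmd and Gzme had r of 0.993, 0.902 and 0.931 in the H2-Ea-ps-positive, Cp-high and neither classes. Gzmc followed both, with r of 0.973, 0.735 and 0.778 to Gzmd and 0.973, 0.759 and 0.848 to Gzme. Prf1 and Gzmb had r of 0.831, 0.924 and 0.882, and Nkg7 and Fasl 0.680, 0.946 and 0.911. All of these passed the adjusted permutation test (adjusted p from 0.000338 to 0.0411), with rho between 0.755 and 0.993. The relation of Nkg7 and Fasl in the H2-Ea-ps-positive class was lost for r without PancO2 anti-PD-1 71 (r = 0.596, adjusted permutation p = 0.119) but kept for rho (0.727, adjusted permutation p = 0.0422). Without the 2 libraries farthest from the median of the first gene named, r stayed between 0.581 for Nkg7 and Fasl in the H2-Ea-ps-positive class and 0.979 for Gzmd and Gzme there. Gzmb was not apart from Gzmc, Gzmd and Gzme in every class. In the Cp-high class its r passed with Gzmd (0.846) and Gzme (0.916) and not with Gzmc (0.656). In the H2-Ea-ps-positive class it passed with Gzmc (0.790), Gzmd (0.748) and Gzme (0.698), and without PancO2 anti-PD-1 71 with Gzmc only (0.731). In the neither class none passed (0.095, 0.332 and 0.480 for Gzmc, Gzmd and Gzme).

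Beside Gzmb, which had the highest r with Prf1 in the Cp-high and neither classes, the partners of Prf1 varied. In the H2-Ea-ps-positive class its r was 0.956 with Gzmc, 0.940 with Gzmd and 0.928 with Gzme (0.914, 0.876 and 0.825 without PancO2 anti-PD-1 71), and −0.035 with Ifng. In the Cp-high class its r was 0.921 with Ifng, 0.874 with Gzme and 0.548 with Gzmc. In the neither class it was 0.626 with Ifng (rho = 0.720) and 0.103 with Gzmc (rho = 0.028). Neither r passed the adjusted threshold, while the rho with Ifng did (adjusted permutation p = 0.0317). Fasl (r = 0.783) and Gzmk (r = 0.698) did pass by r there (adjusted permutation p = 0.0154 and 0.0392). Nkg7 passed with Prf1 by rank only in the Cp-high and neither classes (rho = 0.713 and 0.769, adjusted permutation p = 0.0348 and 0.0186). In the H2-Ea-ps-positive class it passed by r (0.739, adjusted permutation p = 0.0211), but not without PancO2 anti-PD-1 71 (0.514). The differences in r between classes were not tested.

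**Figure D4:**
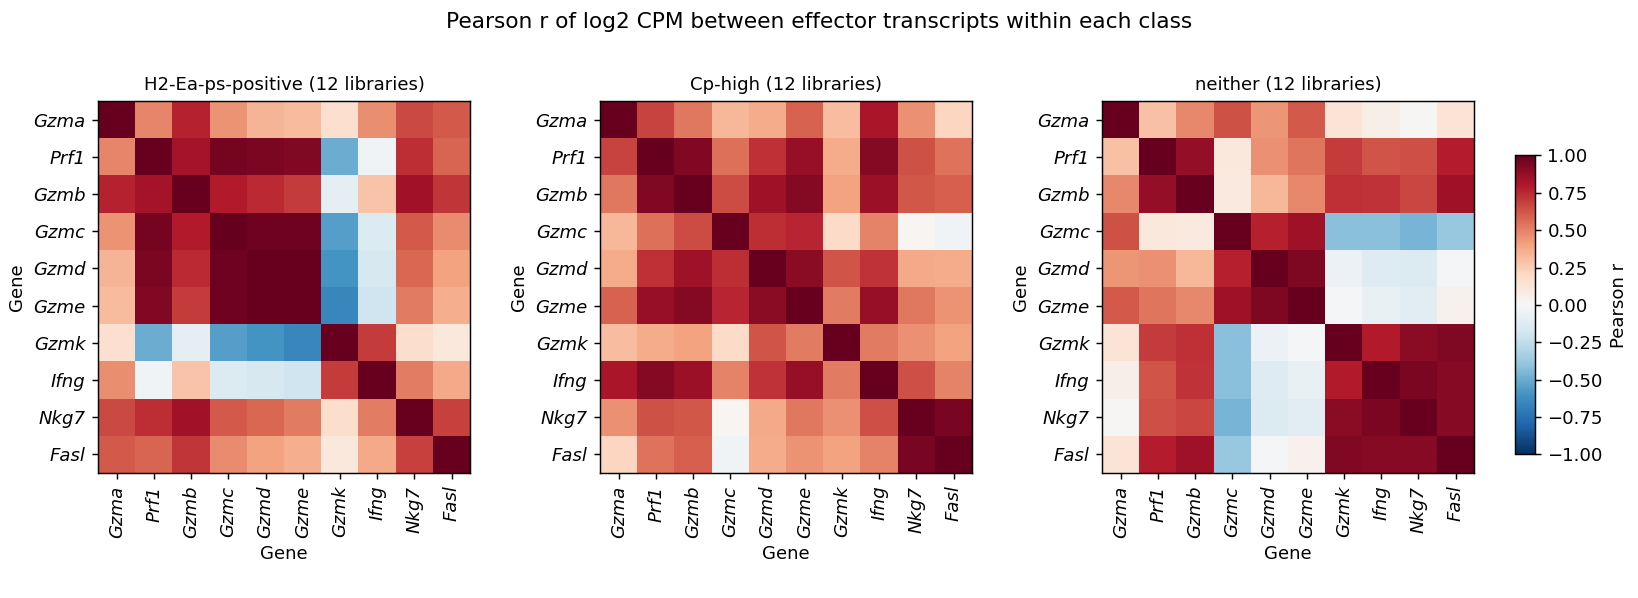
Pearson r of log2 CPM between the 10 genes, 1 panel for each class of 12 libraries, on a colour scale from −1 to 1. Gzmc, Gzmd and Gzme have r from 0.735 to 0.993 with each other over the 3 panels. In the H2-Ea-ps-positive panel Prf1 has r from 0.928 to 0.956 with them and −0.035 with Ifng. In the Cp-high panel they are not a separate block. Gzme there has r of 0.916 with Gzmb, 0.874 with Prf1 and 0.871 with Ifng, and Gzmd has 0.846 with Gzmb. Gzmc is lower there, at 0.656 with Gzmb and 0.548 with Prf1.

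Cytidine deaminase (Cda), the enzyme of pyrimidine salvage that the study is about, was set beside the members in the same way. In whole tumours the cells that express Cda and those that express the members are not resolved. Cda had medians of 5.61, 14.3 and 4.65 CPM in the H2-Ea-ps-positive, Cp-high and neither classes. Of 30 relations of members with Cda, 5 passed the adjusted threshold and all were positive. In the Cp-high class they were Gzmb (r = 0.875, rho = 0.937, permutation p = 5e-05, adjusted 0.0015), Ifng (r = 0.796, rho = 0.923, permutation p = 0.00211, adjusted 0.0188), Prf1 (r = 0.781, rho = 0.783, permutation p = 0.00251, adjusted 0.0188) and Gzme (r = 0.772, rho = 0.869, permutation p = 0.00213, adjusted 0.0188). Without the 2 libraries farthest from the median of Cda these were 0.851, 0.862, 0.831 and 0.757. The relation of Nkg7 with Cda in the H2-Ea-ps-positive class (r = 0.747, rho = 0.538, permutation p = 0.00476, adjusted 0.0286) was lost without PancO2 anti-PD-1 71 (r = 0.531, adjusted permutation p = 0.317). None of the 10 relations passed in the neither class, where r ran from −0.114 to 0.392.

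The genes most alike to single members were ranked by the mean of r over the 3 classes, among 14180 expressed genes. Other members were left out of this ranking, so closer ones such as Gzmb for Prf1, or Gzmd and Gzme for Gzmc, are not listed. For Prf1 they were Slfn2 (mean r = 0.861) and the MHC class I genes H2-T22 (0.849) and H2-K1 (0.845). For Ifng they were Gm4841 (0.932), Slamf8 (0.928) and Tapbpl (0.927). For Gzma they were Ly6c2 (0.693), Ncr1 (0.690) and Mctp2 (0.631), and for Gzmc they were Gzmf (0.777), Angptl4 (0.683) and Cd47 (0.680).

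The genes that pack, release, inhibit and regulate these effectors are given as counts, to be read against all genes, of which 36.9% were higher and 34% lower in H2-Ea-ps-positive than in neither libraries and 34.2% higher and 33.4% lower in Cp-high than in neither libraries. Lists of this size with shares near these are no result about the lists. Of 5 genes for granule packing and granzyme processing, 2 were higher and 1 lower in H2-Ea-ps-positive than in neither libraries, and 1 was higher and 4 lower in Cp-high than in neither libraries. The protease Ctsl was 0.69 log2 units higher in the first contrast and −2.35 lower in the second. Of 6 genes for granule release, 1 was higher and 4 were lower in the first contrast, and 4 were higher in the second, among them the vesicle fusion protein Vamp8 (−0.30 and 0.35). Of 5 serpins that inhibit granzymes or belong to the same family, 2 were higher and 2 lower in the first contrast and 3 higher and 2 lower in the second, where Serpinb9b moved by 4.19 and −1.89 and Serpinb9, the inhibitor of Gzmb, by −0.52 and 0.55. Of 6 death receptors and ligands, 2 were higher and 2 lower, then 4 higher and none lower, with Fas, the receptor for Fasl, at −1.13 and 1.998. Each Fas, Serpinb9b and Ctsl value passed edgeR's test.

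Of 7 transcription factors of cytotoxic cells, 2 were higher and 1 lower in H2-Ea-ps-positive than in neither libraries, and 4 were higher and 2 lower in Cp-high than in neither libraries, against the same shares of all genes. Eomes was lower in both (−1.32 and −2.56 log2 units). Of 9 genes for the interferon gamma receptor and its targets, 2 were higher and 4 lower in the first contrast and 4 higher and 1 lower in the second, where Ifng itself was higher. Gbp2 (1.44) and Cxcl9 (1.94) were among the 4 higher in Cp-high libraries, where 34.2% of all genes were higher. The count of those higher is near that share and is no result about the list.

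On Cd8a, the same lists gave 5 of 9 positive slopes for the interferon gamma receptor and targets, against 2.14% of all genes, among them Cxcl9 (1.11 ± 0.16), Ido1 (1.05 ± 0.19), Ciita (0.87 ± 0.12) and Gbp2 (0.58 ± 0.10), all past edgeR's test. Of the 7 transcription factors, Tox (1.08 ± 0.08) and Tbx21 (0.64 ± 0.10) had positive slopes. Serpina3g (0.39 ± 0.09) was the only 1 of the 5 serpins listed to pass, and none passed among 5 packing genes, 6 release genes and 6 death receptors and ligands. No listed gene had a negative slope past the threshold.

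Between the groups as labelled no member differed past the threshold. With 4 libraries in each group, large differences could be missed. The SE of Gzmd in PancO2 anti-PD-1 against IgG, for example, was 2.15 log2 units. In 9 comparisons, anti-CTLA4 and anti-PD-1 against IgG in each model and the 3 pairs of models under IgG, edgeR called 0 of the 90 member values and 0.0% of all genes in each comparison. The number of genes at an unadjusted p under 0.05 ran from 25 to 912 by comparison, DESeq2 called between 0 and 2 genes and limma-voom 0. Of the 90 member values 1 had an unadjusted p under 0.05, Gzmk in CT26 IgG against MC38 IgG (−1.34 ± 0.61 log2 units), and the smallest adjusted p of a member was 0.899. The 6 treatment comparisons share the IgG libraries of their model.

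The spread inside labelled groups was wide. Prf1 was at 13.6 ± 11.6 CPM (SD, n = 4) in PancO2 IgG, 16.7 ± 23.2 CPM (SD, n = 4) in PancO2 anti-PD-1 and 13.8 ± 22.4 CPM (SD, n = 4) in PancO2 anti-CTLA4. In MC38 it was at 15.3 ± 10.6 CPM under IgG and 10.2 ± 13.6 CPM under anti-PD-1, and in CT26 at 10.6 ± 15.2 CPM and 9.54 ± 9.93 CPM (SD, n = 4 each). Ifng was at 1.30 ± 0.282 CPM in PancO2 IgG and 1.91 ± 1.53 CPM in PancO2 anti-PD-1 (SD, n = 4 each). Every labelled group held libraries of more than 1 class.

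**Figure D5:**
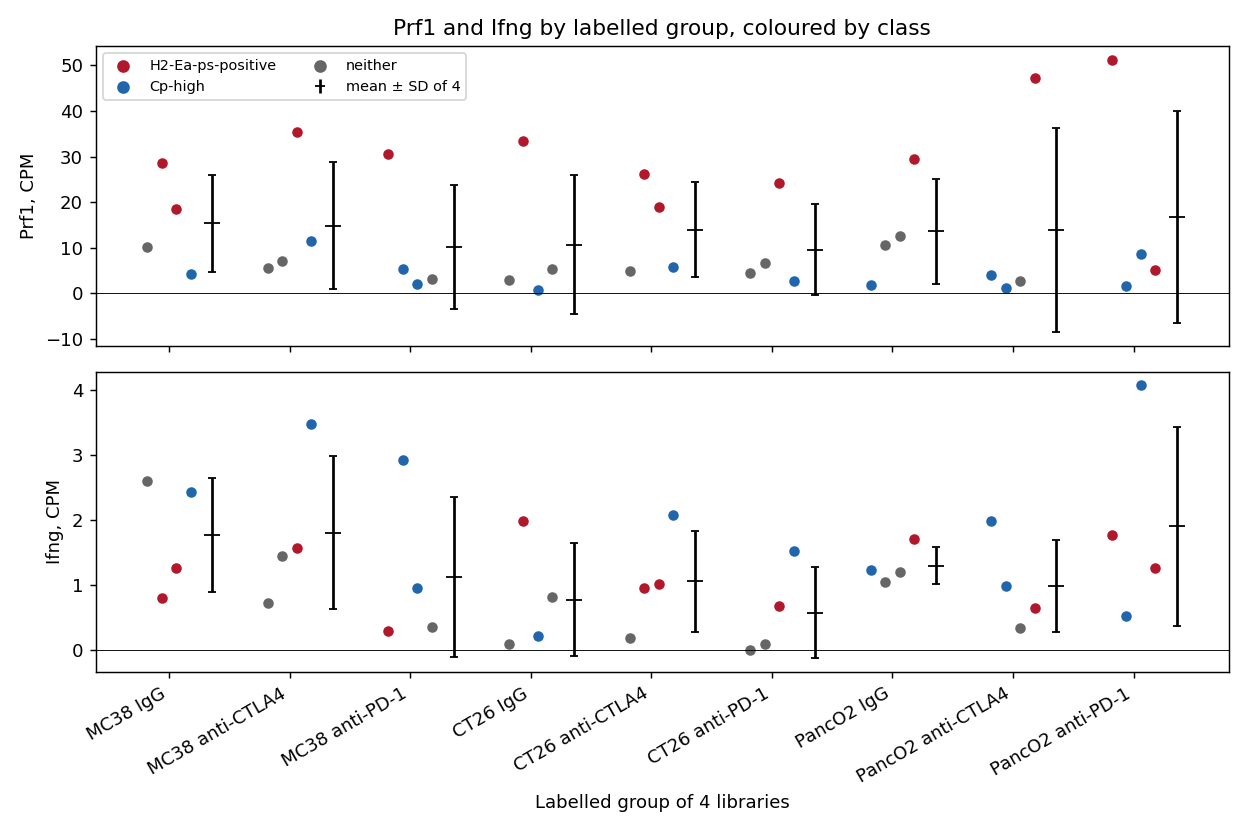
Levels of Prf1 and Ifng in CPM in the 9 labelled groups, with 1 point for each of 4 libraries coloured by class and the mean ± SD in black. The H2-Ea-ps-positive libraries hold the highest Prf1 of each labelled group, and in PancO2 anti-PD-1 Prf1 ranges from 1.68 to 51.3 CPM.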

How the data were processed

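Whole tumours were extracted with TRIzol and poly-A selected libraries were made with an Illumina TruSeq V2 kit, 1 library for each of 36 mice. The authors mapped reads with TopHat and Bowtie, assigned them to Ensembl genes with HTSeq and deposited unnormalized counts, 1 column for each library. The submitters' processing notes name FastQC 0.11.5, Bowtie2, HTSeq 07.2 and build mm10. HTSeq sets aside reads without a unique position, so genes with close copies are undercounted. The strand setting and annotation release are not given in the sources used here. The 5 summary lines, which name no gene, held 44.8% to 63.4% of listed reads (86.5% in PancO2 anti-PD-1 71) and were left out. Totals had a median of 27968270 counts.

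Counts were tested with edgeR 4.0.16 in R 4.3.3 (filterByExpr, TMM, robust estimateDisp and glmQLFit, glmQLFTest), two-sided, with Benjamini-Hochberg adjustment over all genes and a threshold of 0.05. Standard errors are the log2 value divided by the square root of F. Class contrasts used 1 fit of 36 libraries. Slopes used log2 CPM of Cd8a or Ncr1 (TMM-scaled, prior count 2, centred within class). Labelled models were compared in the 12 IgG libraries and treatments in the 12 libraries of a labelled model. P-values measure the spread between these samples. Correlations and ratio slopes used 100000 two-sided permutations, the ratios within classes, computed with scipy 1.17.1, pandas 2.3.3 and numpy 2.4.6 in Python 3.11.15. Where a library had 0 counts, the limit printed is that of 3 counts in its total, for counting error only.

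All 10 members were named, as were Gzmf, Gzmg, Gzmm and Gzmn and members of the pathway lists by mean level. Also named were the 3 genes other than members most alike to Prf1, Ifng, Gzma and Gzmc. Likeness was the mean within-class r among genes of at least 1 CPM in at least 12 libraries. Other listed genes were named after their values were seen. The members, lists and classes were chosen with earlier results of these data known. Alternatives were limma-voom (limma 3.58.1), the Wald test of DESeq2 1.42.0, its size factors in edgeR, scaling by library size alone, dropping the filter, leaving out PancO2 anti-PD-1 71 or each library in turn, a least absolute log2 value of 0.5, Cd8b1, Cd3e or Ncr1 in place of Cd8a, Ncr1 beside Cd8a, a prior count of 0.5, 1 fit of 36 libraries and class as a term. Chosen after the data were seen were leaving out the 2 libraries of lowest Cd8a, the slopes and correlations on Ncr1, the correlations between members and the interaction of class and Cd8a. Promoter sequences came from RefSeq (GRCm38.p6), and promoter and transcript likeness was computed with Biopython 1.88. Coordinates and exon lengths came from the GENCODE annotation of GRCm38. Figures were drawn with matplotlib 3.10.9. The steps were tested on simulated data.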

Additional observations from a re-analysis of the deposited data

Results flagged for a closer look

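Within the 9 labelled groups of 4 libraries, the 10 genes gave 90 sets of values, and in 23 sets 1 library lay far from the other 3, by a criterion that chance meets in about 1 of 20 sets (4.5 of 90). In all 23 it was the highest library of its group and H2-Ea-ps-positive. Labelled groups mix classes, and the sets reuse the same libraries over genes that move together, so they are not independent. The 23 sets restate the higher levels of these genes in that class and are no separate result. For Prf1 these were MC38 anti-PD-1 16 (30.5 CPM), CT26 IgG 27 (33.3 CPM), PancO2 anti-CTLA4 62 (47.3 CPM) and PancO2 anti-PD-1 64 (51.3 CPM), where no other library of the same group exceeded 8.69 CPM. For Gzma they were MC38 anti-CTLA4 14 (16.2 CPM), MC38 anti-PD-1 16 (9.41 CPM), CT26 anti-PD-1 42 (10.8 CPM) and PancO2 anti-CTLA4 62 (17.98 CPM), and for Gzmb it was PancO2 anti-CTLA4 62 alone (57.4 CPM).

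Gzmc, Gzmd and Gzme, the neighbours of Gzmb, each stood out in MC38 anti-CTLA4 14, MC38 anti-PD-1 16, PancO2 anti-CTLA4 62 and PancO2 anti-PD-1 64, and Gzmc also in PancO2 IgG 54 and Gzme in MC38 IgG 3. Gzmc reached 30.6 CPM in MC38 anti-CTLA4 14, 38.0 CPM in MC38 anti-PD-1 16, 37.5 CPM in PancO2 IgG 54, 68.3 CPM in PancO2 anti-CTLA4 62 and 65.0 CPM in PancO2 anti-PD-1 64. Gzmd reached 52.5 CPM in MC38 anti-CTLA4 14, 67.0 CPM in MC38 anti-PD-1 16, 83.8 CPM in PancO2 anti-CTLA4 62 and 104 CPM in PancO2 anti-PD-1 64. Gzme reached 18.7 CPM in MC38 IgG 3, 19.4 CPM in MC38 anti-CTLA4 14, 24.1 CPM in MC38 anti-PD-1 16, 34.6 CPM in PancO2 anti-CTLA4 62 and 35.7 CPM in PancO2 anti-PD-1 64. No set of Gzmk, Ifng, Nkg7 or Fasl stood out in this way.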

How the results depend on the processing

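Counts of called members stayed within 1.5 times of the reported value in 241 recomputations and moved further in 11, and the cause was not tested unless fewer libraries were used. With Ncr1 in place of Cd8a the members called were 0 over all classes, 0 in the Cp-high class and 0 in the neither class. The 2 called in the Cp-high class became 1 with library size only and 1 with no filter, and the 2 in the neither class became 4 with DESeq2's Wald test, 4 with Ncr1 beside Cd8a and 4 with no filter. On Ncr1 in the H2-Ea-ps-positive class, 0 became 1 without PancO2 anti-PD-1 71. Without the 2 libraries of lowest Cd8a, ratios called fell from 6 to 2 against Ifng and from 5 to 1 against Prf1. Leaving out each library in turn gave 0 called members (lowest 0, highest 0) in the 9 labelled comparisons. No paired analysis was possible because each mouse number belongs to 1 library. Single member values kept their direction and side of the threshold in 447 recomputations, changed side in 17 and changed sign in 31, none of them past the threshold before and after. Slopes on Ncr1 in place of Cd8a turned to −0.17 (Fasl) and −0.012 (Nkg7) in the Cp-high class, to 0.87 (Gzmc), 0.69 (Gzmd) and 0.63 (Gzme) in the H2-Ea-ps-positive class, to 0.66 (Gzmc), 0.43 (Gzmd) and 0.58 (Gzme) over all classes and to 0.73 (Gzma), 0.67 (Gzmc), 0.27 (Gzmd) and 0.47 (Gzme) in the neither class. Without the 2 libraries of lowest Cd8a they turned to 0.14 (Gzmc), 0.35 (Gzmd) and 0.39 (Gzme) over all classes and to 0.63 (Gzma), 0.19 (Gzmc), 0.39 (Gzmd) and 0.51 (Gzme) in the neither class. With Ncr1 beside Cd8a they turned to 0.059 (Gzmd) and 0.044 (Gzme) over all classes, to 0.059 (Gzma), 0.013 (Gzmd) and 0.016 (Gzme) in the neither class and to −0.24 (Prf1) in the H2-Ea-ps-positive class. With Cd3e in place of Cd8a they turned to 0.018 (Gzma, neither), −0.22 (Gzmc, Cp-high) and −0.20 (Prf1, H2-Ea-ps-positive), with Cd8b1 to 0.037 (Gzma, neither) and −0.27 (Prf1, H2-Ea-ps-positive), and with DESeq2's Wald test to 0.049 (Gzmd, all classes). Without PancO2 anti-PD-1 71, r with Cda in the H2-Ea-ps-positive class turned to −0.0017 for Fasl and 0.497 for Gzmk. Depth limits Gzmk and Ifng, which stayed at or under 4.07 CPM, and Gzmd and Gzme in the Cp-high class, where a few libraries had 0 counts.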

Other observations

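The remaining granzymes of the table were low. Gzmm, of the cluster on chromosome 10, had medians of 0.751, 0.344 and 0.808 CPM in the H2-Ea-ps-positive, Cp-high and neither classes and was lower in Cp-high than in neither libraries (−1.13 log2 units, past edgeR's threshold), whereas H2-Ea-ps-positive and neither libraries differed by −0.04. Gzmn, of the chromosome 14 cluster, reached at most 0.299 CPM, in MC38 anti-PD-1 16, and had 0 counts in all 12 Cp-high libraries, which allows up to 0.228 CPM in the shallowest of them, counting error only.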
